A study of Mus musculus with 10 samples.

Results

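The genes described here encode proteins that carry out or steer the splicing of messenger RNA in mouse bone marrow stem cells, normal or leukaemic by label. They were the protein-coding genes whose GENCODE M21 symbols belong to the Srsf, Hnrnp, Sf3a or Sf3b, U2af and Snrp families, leaving out Snrpn. The rule took 54 of the 51456 genes in the deposited table. Of these 11 were Srsf, 20 Hnrnp, 9 Sf3, 3 U2af and 11 Snrp genes. All 54 had a value in every library, and 52 reached at least 1 FPKM in at least 5 of the 10 libraries and were tested. Srsf12 (0.0866 ± 0.0332 FPKM, SD, n = 5, and 0.0607 ± 0.0266, n = 5) and U2af1l4 (0.255 ± 0.0637 and 0.361 ± 0.154) stayed below that level in both groups. FPKM is the number of fragments per kilobase of gene, scaled to the size of the library, so levels can be set side by side between genes.

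Splicing removes introns from a transcript in a large RNA and protein machine, the spliceosome. Most of its small nuclear ribonucleoproteins carry a ring of Sm proteins, encoded by the Snrp genes, around a small nuclear RNA. The U2AF dimer reads the end of the intron, and the SF3A and SF3B complexes hold the U2 particle at the branch point. SR proteins (Srsf) and hnRNP proteins (Hnrnp) bind the transcript itself and, often in opposition, set which exons are kept. Mutations of SF3B1, SRSF2, U2AF1 and ZRSR2 are recurrent in human myeloid neoplasms.

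The series compared 2 groups of 5 libraries each. The HSC group was sorted from bone marrow of wild-type C57BL/6J mice as lineage-negative cells positive for c-Kit, Sca-1 and CD150 but not CD48, the surface pattern of haematopoietic stem cells. The LSC group, leukaemia stem cells, came from bone marrow of mice with acute myeloid leukaemia driven by MLL-AF9. These cells were sorted as lineage-negative and Sca-1-negative with c-Kit, CD16/32 and CD34. The genotype label reads wild-type in both groups. How MLL-AF9 was introduced, the age of the mice, and whether animals were pooled are not stated in these sources. Disease and sort gate differ between the groups at once and cannot be told apart, and neither group carries a drug or a further allele by label. The labels do not say that the libraries came from separate mice, so p-values cover the spread among the libraries alone.

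Of the 7 genes of the sort gates, 4 went against the labels and 1 went with them. Ly6a, which encodes Sca-1, averaged 0.920 FPKM under the HSC label and 74.2 under the LSC label, and Slamf1, which encodes CD150, 0.494 and 2.85. Fcgr3 (371 and 197 FPKM) and Fcgr2b (42.2 and 26.6), which encode CD16 and CD32, were lower in the LSC-labelled libraries, whose gate selects for them. Cd34 (27.7 and 91.3) was higher there, as the LSC gate has it. Kit, which both gates select for, was also higher (21.5 and 61.6), and Cd48, which the HSC gate selects against, stood at 130.3 and 153 and was not called. Every direction below is therefore between libraries as labelled. Limma called 41.0% of the 13431 genes tested, and the median log2 fold change of all of them was 0.11. The groups parted on the first principal component, which held 64.1% of the variance. The steps between low values gave an estimated 13120000 to 27710000 fragments per library under the HSC label and 16610000 to 35310000 under the LSC label. Of all FPKM, ribosomal RNA made up 5.15% to 9.33% in the former and 4.41% to 5.72% in the latter, and mitochondrial transcripts 2.7% to 4.41% and 3.44% to 4.76%. These ranges differed between the groups but overlapped, and the part of these values in the results was not tested.

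Many markers of other cells also differed between the groups. All 5 stromal and osteoblast markers were called higher in the LSC-labelled libraries (summed 0.807 to 1.92 FPKM against 217 to 958), as were all 5 platelet markers tested of 6 (16.6 to 255 against 745 to 1212) and all 6 neutrophil markers (564 to 3265 against 1681 to 19509). Erythroid markers were higher in 5 of 8 (85.9 to 1331 against 795 to 1663). Of 5 basophil and mast cell markers 4 were higher (22.4 to 124 against 763 to 1740). B cell markers were higher in 3 of 4 tested of 6 (31.6 to 51.3 against 36.7 to 61.0), and the single T and NK cell marker tested of 5 was higher (1.04 to 2.89 against 4.93 to 12.0). Endothelial markers were higher in 2 of 3 tested of 4 (17.8 to 49.9 against 28.05 to 36.8). Monocyte and macrophage markers were lower in 3 of 5 and higher in 0, with summed levels of 532 to 1378 and 541 to 919. Stem cell markers were higher in 4 of 5 tested of 8 (8.13 to 30.9 against 166 to 217). Myeloid progenitor markers had 0 of 5 called (11531 to 27805 and 13532 to 20843). No listed marker was at 0 in all libraries of a group. The part of these cells in the results below was not tested, and in bulk libraries a different share of a cell type and a different RNA content per cell cannot be told apart.

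Part of the splicing genes rose from the HSC-labelled to the LSC-labelled libraries, namely 9 of 11 Snrp and 5 of 9 Sf3 genes, against 2 of 10 Srsf and 4 of 20 Hnrnp genes. The difference between families was not tested. Of the 52 members tested, limma called 21 higher, 0 lower and 31 not, where 27.2% of all genes tested were called higher and 13.8% lower. The members called higher made 40.4%. At an unadjusted p under 0.05 the number lower was also 0, while with 3 alternative scalings it was 1 (Sf3b1, below). The median log2 fold change of the 52 was 0.25 against 0.11 for all genes, a margin of 0.14. The groups did not overlap for 15 members that were higher in the LSC-labelled libraries, where 20% of all genes were so, and for 0 that were lower, where 9.80% of all genes were so.

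**Figure D1:**
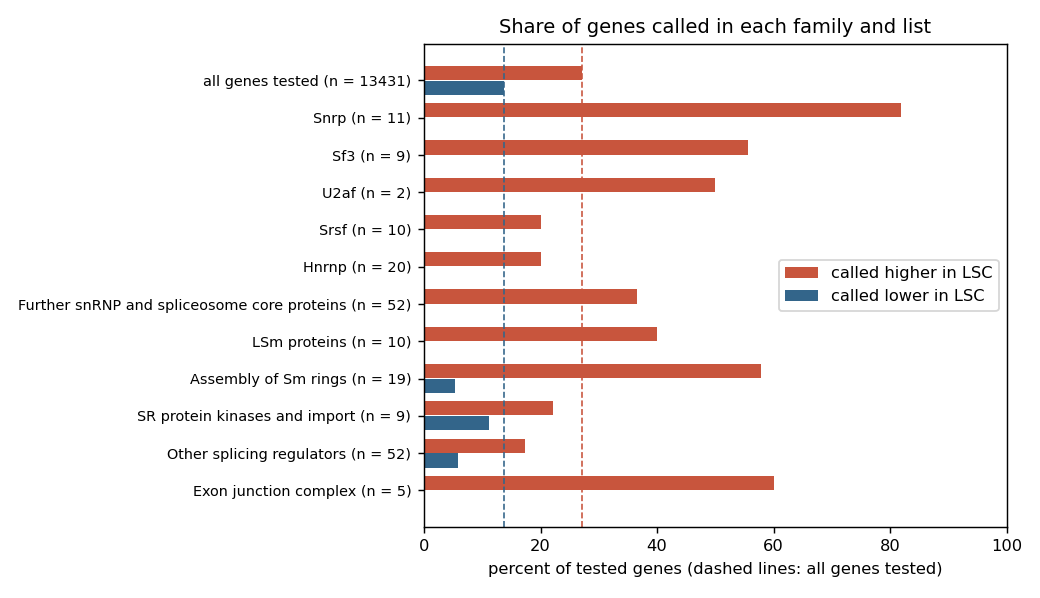
Percent of tested genes that limma called higher (red) or lower (blue) in the LSC-labelled libraries, for all genes, the 5 families and 6 further lists of splicing genes, with the number tested after each name. Dashed lines mark all genes, 27.2% higher and 13.8% lower; the Snrp bar stands at 81.8% and the Srsf and Hnrnp bars at 20%.

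The number called depended on the scaling between libraries. On the deposited values the median of all genes lay 0.11 above 0 on the log2 scale, and median-of-ratios scaling over the genes tested moved it to -0.01, quantile normalization to -0.02 and removal of GC and length trends to 0.01. Members called higher then numbered 13, 18 and 16, where 20.7%, 20.7% and 22.7% of all genes were called higher. The median of the members stayed above that of all genes in each, by 0.12, 0.13 and 0.15. The median of every family was above 0 on the deposited values and under these 3 scalings. Median-of-ratios factors taken over every gene above 0 in all libraries, a setting chosen after the data were seen, left 16 members called. With these factors 3184 of the 13431 genes tested were called higher.

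The Snrp genes rose most often. Limma called 9 of 11 higher and 0 lower, with a median log2 fold change of 0.43, where 27.2% of all genes were called higher. The 7 that form the Sm ring (Snrpb, Snrpd1, Snrpd2, Snrpd3, Snrpe, Snrpf and Snrpg) were all called, and the other 2 were Snrpa and Snrpc, both proteins of the U1 particle that recognises the start of the intron. Snrpa1 and Snrpb2, the proteins of the U2 particle in this family, stood at 42.3 ± 3.23 and 50.3 ± 5.88 FPKM and at 32.1 ± 5.81 and 35.3 ± 5.15, and were not called (adjusted p = 0.0692 and 0.4575). Snrp genes called higher numbered 6 with median-of-ratios scaling, 8 after quantile normalization and 7 once GC and length trends were taken out. Of the Sm ring genes 4, 6 and 5 were called there.

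Snrpd2, with no overlap between the groups, had the largest log2 fold change in the ring after Snrpf. Its gene, ENSMUSG00000040824, maps to chromosome 7 at 19149722 to 19153542 on the forward strand (GRCm38/mm10, GENCODE M21). The HSC-labelled libraries 1 to 5 held 80.3, 84.05, 58.2, 57.3 and 80.2 FPKM and the LSC-labelled libraries 1 to 5 held 105.6, 124, 121, 107 and 117. No value overlapped, and HSC-labelled libraries 3 and 4 were the low pair. On the log2 scale the change was 0.68 (SE 0.124, limma adjusted p = 0.001212).

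Snrpf had the largest fold change of all members. Its values were 20.1, 25.6, 12.4, 10.2 and 20.3 FPKM under the HSC label and 25.2, 31, 32.01, 23.9 and 34.8 under the LSC label. The groups overlapped at HSC-labelled library 2, and HSC-labelled libraries 3 and 4 were again lowest. The log2 fold change of 0.76 (SE 0.222, adjusted p = 0.0179) fell to 0.40 without those 2 libraries, where the call ended (adjusted p = 0.0568).

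Snrpb, which had the highest mean FPKM of the family, was the ring gene with the smallest log2 fold change. It stood at 327.5, 310.4, 301, 274 and 327 FPKM against 363, 381, 388, 329 and 379. The groups did not overlap, but the lowest LSC-labelled value, in library 4, lay close above the highest HSC-labelled one. Its log2 fold change was 0.26 (SE 0.0822, adjusted p = 0.0271), and it was not called with median-of-ratios scaling (0.12, adjusted p = 0.2357), quantile normalization (adjusted p = 0.0578) or GC and length trends removed (adjusted p = 0.2759). The call also ended without HSC-labelled library 3 or 4 or LSC-labelled library 2, 3 or 5.

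The other ring genes lay between these. Snrpe and Snrpg, 2 of the abundant small Sm genes, went from 220 ± 19.5 to 297 ± 19.7 FPKM and from 203 ± 22.6 to 291 ± 19.7 (SD, n = 5 in each group), with no overlap and with calls under every alternative run. Snrpd1 went from 153 ± 20.1 to 205 ± 23.9 and Snrpd3 from 17.8 ± 4.88 to 27.1 ± 5.72, with overlap, and neither was called with median-of-ratios scaling (adjusted p = 0.0559 and 0.0515). The call of Snrpd3 also ended without HSC-labelled library 3 or 4 or LSC-labelled library 1, 2 or 3. Snrpa rose from 81.3 ± 8.70 to 110 ± 9.94 FPKM and Snrpc from 11.0 ± 2.02 to 15.3 ± 0.700, both with no overlap and called under every alternative run. Reads of near-identical copies may be shared. Snrpert, a processed pseudogene named after Snrpe, stood at 68.2 ± 10.3 and 85.4 ± 13.1 FPKM (not called, adjusted p = 0.0762), so the level of Snrpe is uncertain. The other 4 pseudogenes whose symbols match the family names, and Snrpn, lay below 1 FPKM on average in the HSC-labelled libraries.

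Genes listed for the assembly of Sm rings and their particles were often called higher as well. Before import to the nucleus, the PRMT5 complex methylates Sm proteins and the SMN complex assembles them into a ring on the RNA. Of 19 listed genes tested, 11 were called higher and 1 lower, 57.9% higher against 27.2% of all genes, with a median of 0.34. The list also holds Tgs1, Snupn, Phax, Ncbp1, Ncbp2 and Coil, which do not build the ring. Of these Tgs1, Phax, Ncbp1 and Ncbp2 are among the 11. Gemin8, of the SMN complex, rose from 3.89 ± 0.418 to 9.65 ± 0.485 FPKM (log2 fold change 1.13, limma adjusted p = 3.471e-06). Coprs, a partner of PRMT5, fell from 9.85 ± 1.47 to 4.73 ± 0.318 (-0.91, adjusted p = 5.395e-05). Prmt5 itself, which the rule for named genes did not take, rose from 48.7 to 71.6 FPKM, while Smn1 (50.9 and 48.6) was not called. Most of the LSm proteins listed form a like ring on U6 RNA or on decaying messages. Of the 10 LSm genes 4 were higher and 0 lower (0 also at an unadjusted p under 0.05). Lsm7 led them (44.5 ± 8.75 to 84.8 ± 6.27 FPKM, log2 fold change 0.93).

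**Figure D2:**
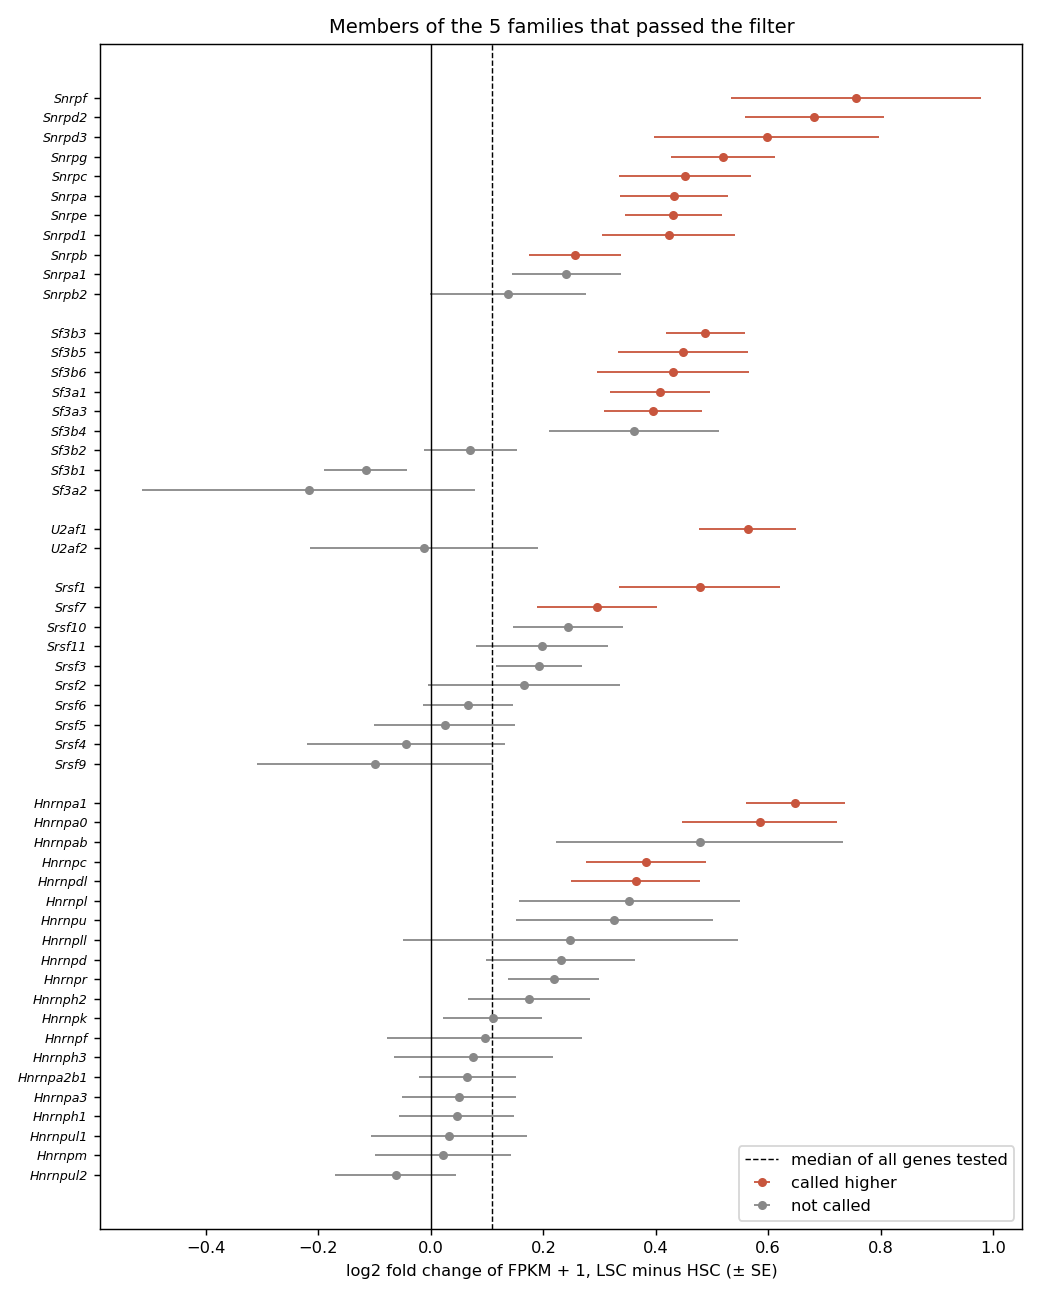
Log2 fold change of FPKM + 1, LSC-labelled minus HSC-labelled, with limma's SE, for the 52 members tested, ordered by family. Red points passed an adjusted p of 0.05 and grey points did not; the dashed line is the median of all genes at 0.11, and 46 of the 52 points lie above 0.

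The Sf3 genes were divided within their own complexes. Of 9, limma called 5 higher and 0 lower (55.6% against 27.2% of all genes), with a median of 0.39. In SF3A, Sf3a1 rose from 23.4 ± 2.65 to 31.3 ± 1.69 FPKM and Sf3a3 from 73.3 ± 7.001 to 96.5 ± 6.773, while Sf3a2 stood at 14.9 ± 5.50 and 13.2 ± 6.76 and was not called (adjusted p = 0.5898). Sf3a1 and Sf3a3 were called under every alternative run.

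In SF3B, Sf3b3, its scaffold of beta-propellers, differed most. The gene, ENSMUSG00000033732, maps to chromosome 8 at 110810239 to 110846787 on the minus strand (GRCm38/mm10). Values were 69.5, 73.6, 77.6, 72.4 and 82.5 FPKM under the HSC label and 102.5, 111, 104, 107 and 104 under the LSC label. The groups lay well apart, and each was narrow. The log2 fold change was 0.49 (SE 0.0705, adjusted p = 0.000275) and stayed called under every alternative run. Sf3b5, a small subunit, held 34.5, 36.7, 27.8, 23.5 and 33.4 FPKM against 39.3, 44.3, 42.8, 42.9 and 42.6, again with no overlap (0.45, SE 0.116, adjusted p = 0.00946). Sf3b6, which touches the branch point, went from 60.3 ± 10.3 to 81.4 ± 11.4 (adjusted p = 0.0247) and was not called with median-of-ratios scaling (adjusted p = 0.0599) or without HSC-labelled library 3 or 4 or LSC-labelled library 2 or 3.

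Sf3b1, the subunit that clamps the branch point and the one mutated in human myeloid neoplasms, did not rise with its partners. It stood at 98.3, 90.9, 94.6, 97.6 and 101.7 FPKM under the HSC label and 84.1, 100, 89.3, 88.7 and 84.0 under the LSC label. All but LSC-labelled library 2 lay below the lowest HSC-labelled value. The log2 fold change of -0.12 (SE 0.0736) was not called (adjusted p = 0.2346). It was called lower with median-of-ratios scaling (-0.25, adjusted p = 0.0284), quantile normalization (adjusted p = 0.0186) and GC and length trends taken out (-0.20, adjusted p = 0.0451). Sf3b2 had the highest mean FPKM over both groups together, though in neither group alone. It held 106, 93.8, 91.2, 87.4 and 104 FPKM against 104, 98.3, 110.4, 92.9 and 100.4, with overlapping groups and no call (0.07, adjusted p = 0.5256). Sf3b4 stood at 54.5 ± 8.82 and 70.8 ± 14.7 and was not called (adjusted p = 0.0782).

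U2af1, the subunit of U2AF that reads the last bases of the intron, was higher, and its partner was not called. The gene, ENSMUSG00000061613, maps to chromosome 17 at 31647081 to 31658892 on the minus strand (GRCm38/mm10). It stood at 118.5, 120, 112, 99.8 and 135 FPKM under the HSC label and 161, 176, 178, 171 and 176 under the LSC label. The groups did not overlap, and the log2 fold change of 0.56 (SE 0.0866, adjusted p = 0.0004146) was called under every alternative run. U2af2, the subunit that binds the pyrimidine tract, had 20.6 ± 5.10 and 20.6 ± 6.13 FPKM (log2 fold change -0.01, SE 0.203, adjusted p = 0.9667).

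**Figure D3:**
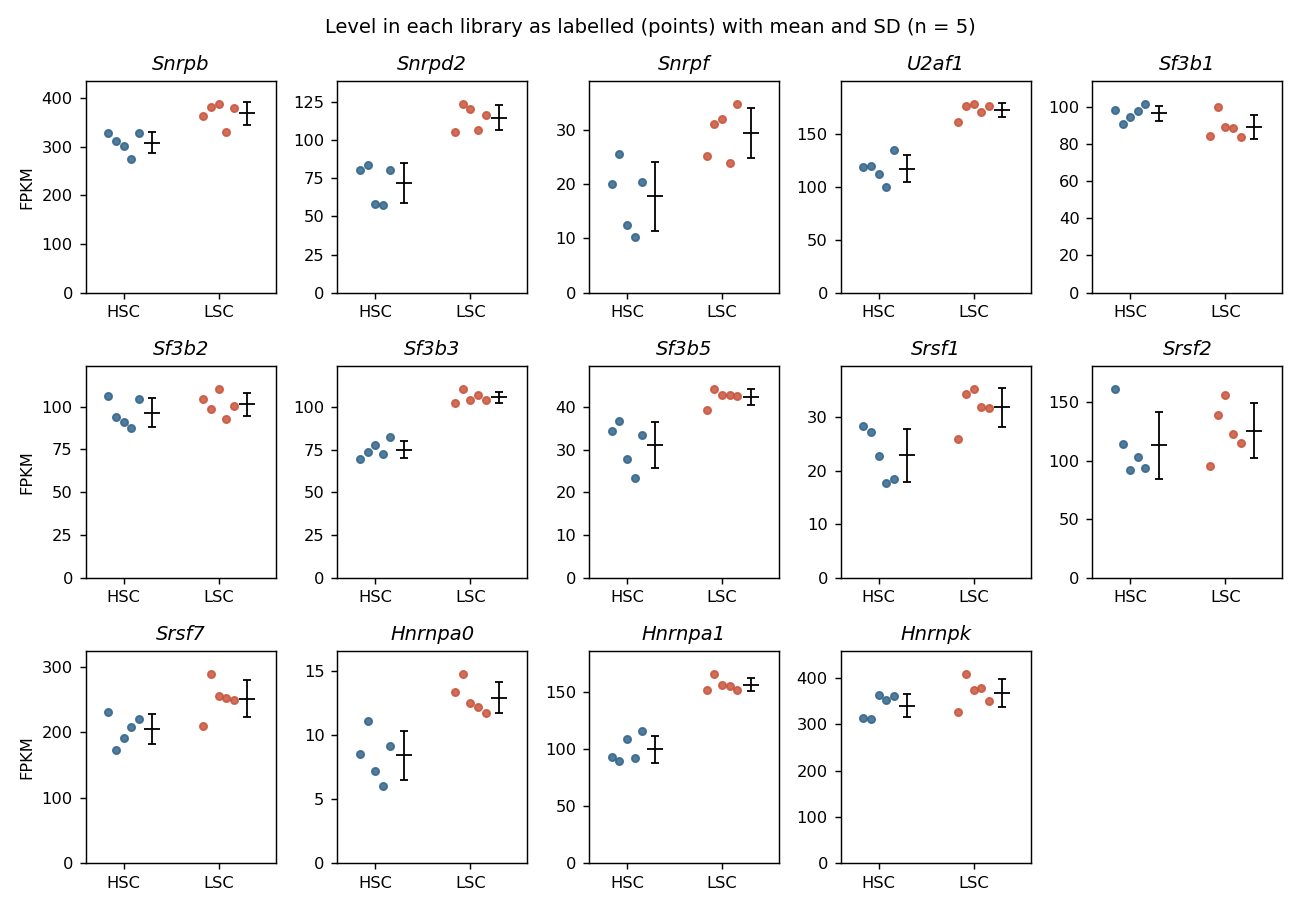
FPKM in each of the 5 HSC-labelled (blue) and 5 LSC-labelled (red) libraries, in the order of their numbers, with mean and SD, for the 14 members given library by library. Snrpd2, U2af1, Sf3b3 and Hnrnpa1 separate with no overlap, while Sf3b1, Sf3b2, Srsf2 and Hnrnpk overlap.

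Few SR genes were called. Of 10 Srsf genes tested, limma called 2 higher and 0 lower, 20% against 27.2% of all genes, with a median log2 fold change of 0.18. Under median-of-ratios scaling 0 were called higher, and 1 when values were quantile-normalized or GC and length trends were taken out. Srsf1, an SR protein that acts in splice site choice, held 28.3, 27.3, 22.7, 17.7 and 18.4 FPKM against 25.99, 34.4, 35.3, 31.9 and 31.8. LSC-labelled library 1 alone lay inside the HSC-labelled range. The log2 fold change was 0.48 (SE 0.143, adjusted p = 0.0199), and it was not called with median-of-ratios scaling (adjusted p = 0.0581), without the filter on low values, without LSC-labelled library 3, or without HSC-labelled libraries 3 and 4.

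Srsf7, an SR protein with a zinc knuckle and the family's highest level, held 230.4, 173, 192, 208 and 221 FPKM against 210.1, 289, 256, 253 and 248.9. LSC-labelled library 1 again lay among the HSC-labelled values. The call was marginal (log2 fold change 0.30, SE 0.107, adjusted p = 0.0456) and ended in 15 of the 20 alternatives, among them all 4 scalings, the replicate block (adjusted p = 0.1115) and those without HSC-labelled library 2, 3 or 4 or LSC-labelled library 2, 3, 4 or 5. Srsf2, which is mutated in human myeloid neoplasms, held 161, 114.5, 92.03, 103 and 94.1 FPKM against 95.2, 139, 156, 122 and 115.5. The groups overlapped over most of their range (0.17, SE 0.171, adjusted p = 0.4686).

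The other 7 Srsf genes were not called, with log2 fold changes from -0.10 (Srsf9) to 0.24 (Srsf10). Srsf3 stood at 99.8 ± 5.26 and 114 ± 8.19 FPKM, Srsf6 at 117 ± 7.82 and 123 ± 9.19 and Srsf5 at 94.9 ± 18.8 and 95.3 ± 7.15. Srsf10 (47.4 and 56.4 FPKM) and Srsf11 (72.8 and 82.7) were not called either, and Srsf4 (9.81 and 9.46) and Srsf9 (14.2 and 12.9) were the low members. Of 9 genes tested for the kinases that phosphorylate SR proteins and for their import, 2 were higher and 1 lower (22.2% higher, against 27.2% of all genes, where 13.8% were lower). Srpk1, a cytoplasmic SR kinase, rose from 28.0 ± 4.30 to 45.3 ± 4.17 FPKM (log2 fold change 0.68, limma adjusted p = 0.0005933). Its relative Srpk2 (11.0 and 12.4 FPKM) was not called. Clk4, a nuclear SR kinase, fell from 29.5 ± 2.95 to 23.9 ± 2.63 (-0.29, limma adjusted p = 0.0329). It was not called in 8 of the 20 alternatives, among them those without HSC-labelled library 1 or 5 or LSC-labelled library 3, 4 or 5. Clk1, Clk2 and Clk3 were not called.

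Among the hnRNP genes Hnrnpa0, Hnrnpa1, Hnrnpc and Hnrnpdl rose. Limma thus called 4 of 20 higher and 0 lower, 20% against 27.2% of all genes, with a median of 0.20. With median-of-ratios scaling or GC and length trends removed 2 were called, and 3 with quantile normalization. Without HSC-labelled libraries 1 and 2 the number was 8, where 4123 of the 13431 genes tested were called higher.

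Hnrnpa1, which represses exons and shuttles to the cytoplasm, rose most. The gene, ENSMUSG00000046434, maps to chromosome 15 at 103240432 to 103246692 on the forward strand (GRCm38/mm10). It stood at 92.6, 89.5, 109, 91.8 and 116 FPKM under the HSC label and 152, 166, 156, 155 and 152 under the LSC label. No value overlapped, and LSC-labelled library 2 lay above the other 4 of its group. This gave a log2 fold change of 0.65 (SE 0.0882, adjusted p = 0.000188).

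Hnrnpa0, a low relative known to bind AU-rich messages, moved likewise. It held 8.51, 11.1, 7.17, 6.02 and 9.12 FPKM against 13.3, 14.7, 12.4, 12.1 and 11.7, with no overlap but a narrow gap (0.58, SE 0.138, adjusted p = 0.0057). Both were called under every alternative run. Hnrnpc, which packs nascent transcripts, rose from 129 ± 14.99 to 168 ± 17.1 FPKM, and Hnrnpdl from 57.9 ± 11.0 to 73.9 ± 1.92. Neither was called with median-of-ratios scaling (adjusted p = 0.1248 and 0.1084), and Hnrnpdl also lost its call without HSC-labelled library 1 or 4 or LSC-labelled library 2 or 4.

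Hnrnpk, a poly(C) binder and the member with the highest level of all, held 313, 313, 364, 353 and 362 FPKM against 328, 409, 375, 379 and 350.1. The groups overlapped (0.11, SE 0.0880, adjusted p = 0.3433). The other 15 that were not called ranged from -0.06 (Hnrnpul2) to 0.48 (Hnrnpab) in log2 fold change. Hnrnpa2b1 stood at 301 ± 27.2 and 314 ± 19.97 FPKM and Hnrnpf, which binds G-rich elements, at 154 ± 40.1 and 160 ± 21.1. Hnrnpm (97.5 and 99.8), Hnrnph1 (66.3 and 68.4), Hnrnph2 (36.6 and 41.1), Hnrnph3 (23.4 and 24.5) and Hnrnpul1 (27.6 and 28.0) were also not called. The widest spreads relative to the mean in the HSC-labelled libraries were in Hnrnpab (23.6 ± 9.84 and 31.9 ± 8.02) and Hnrnpll, known for the splicing of Ptprc, (16.3 ± 8.54 and 18.0 ± 4.19). Hnrnpl (20.1 and 25.3), Hnrnpu (24.8 and 30.8), Hnrnpd (5.60 and 6.65) and Hnrnpa3 (5.80 and 6.05) were not called, and Hnrnpr (6.92 and 8.20) narrowly missed with no overlap (adjusted p = 0.0506).

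Ratios of related genes were compared within each library for 12 pairs. Scaling a library changes such a ratio little where both genes lie well above the pseudocount of 1, which does not hold for U2af1l4 and Srsf12. Of these, 2 reached the smallest p that 5 against 5 libraries allow (exact two-sided permutation p = 0.00794, adjusted over the pairs p = 0.0476). The log2 ratio of Hnrnpa1 to Hnrnpa2b1 was -1.59 ± 0.0459 (SD, n = 5) under the HSC label and -1.0035 ± 0.0714 (n = 5) under the LSC label, higher in 5 of 5, a difference of 0.58. With smaller pseudocounts the difference was 0.59, and only the adjusted p changed (0.0952), because the second pair no longer shared the smallest p. Without any 1 of LSC-labelled libraries 2 to 5 the difference was 0.56 to 0.60 and the adjusted p 0.0635 to 0.0952. That second pair was U2af1 to U2af1l4, whose difference of 0.45 fell to 0.25 with a pseudocount of 0.1, since U2af1l4 lies far below 1 FPKM. The other 10 pairs differed by -0.13 to 0.58, with adjusted p from 0.0635 to 0.6984. Srsf1 to Srsf9 had the widest difference among them (0.58, exact permutation p = 0.0794, adjusted p = 0.238).

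**Figure D4:**
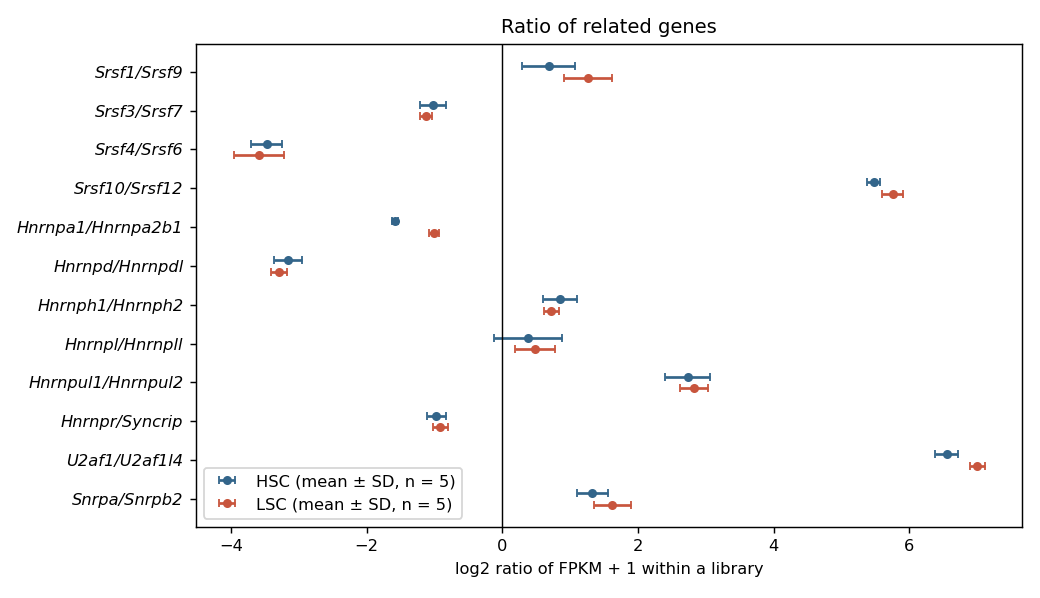
Log2 ratio of FPKM + 1 between 2 related genes within a library, mean and SD over 5 HSC-labelled (blue) and 5 LSC-labelled (red) libraries, for 12 pairs. Hnrnpa1/Hnrnpa2b1 moves from -1.59 to -1.0035 with narrow spreads, while most other pairs overlap.

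The starts of these 2 genes are shown because their ratio changed while they are close relatives. The sequences are the 250 bases before the first start that RefSeq lists on GRCm38.p6, read 5′ to 3′ on the strand of the gene. Hnrnpa1 spans chr15:103240147-103240396 on the plus strand and Hnrnpa2b1 chr6:51469895-51470144 on the minus strand. Capitals mark CCAAT on either strand.
Hnrnpa1: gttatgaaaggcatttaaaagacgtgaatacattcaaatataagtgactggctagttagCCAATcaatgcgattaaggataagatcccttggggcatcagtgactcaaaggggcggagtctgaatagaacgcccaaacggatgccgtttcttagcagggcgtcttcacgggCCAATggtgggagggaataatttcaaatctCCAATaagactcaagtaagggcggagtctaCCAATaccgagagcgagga
Hnrnpa2b1: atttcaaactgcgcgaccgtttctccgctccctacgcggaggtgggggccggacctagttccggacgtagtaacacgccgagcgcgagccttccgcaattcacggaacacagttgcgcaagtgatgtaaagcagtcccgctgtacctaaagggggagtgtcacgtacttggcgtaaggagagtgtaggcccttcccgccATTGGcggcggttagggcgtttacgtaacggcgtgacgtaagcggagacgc
CCAAT was found 4 times before Hnrnpa1 and 1 time before Hnrnpa2b1. Of the 47 members with a listed promoter 21 held it (44.7%), against 37.5% of the 8554 promoters of tested protein-coding genes. The ETS motif CCGGAAG stood in 15 of the 47 (31.9%) and in 15.3% of the 8554, and the NRF1 motif GCGCATGC in 2 (4.26%) and in 4.89%. Both strands were read and overlapping matches counted, and neither of these 2 motifs was present in the printed windows. A match describes the letters only.

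Summed over a family, deposited levels separated in all but one. The Snrp sum was 983 to 1264 FPKM under the HSC label and 1429 to 1635 under the LSC label, the Sf3 sum 472 to 592 and 603 to 666, and the U2af sum 117 to 164 and 185 to 203. The U2af sum was mostly U2af1 (means of 117 and 172 FPKM), while U2af2 averaged 20.6 in both groups. The Hnrnp sum, 1328 to 1560 and 1574 to 1713, did not overlap either, and like the Sf3 sum it parted by a narrow margin. The Srsf sum overlapped, at 727 to 862 and 780 to 1003. All 54 genes took 0.754% to 0.924% of the FPKM of an HSC-labelled and 0.962% to 1.05% of that of an LSC-labelled library.

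**Figure D5:**
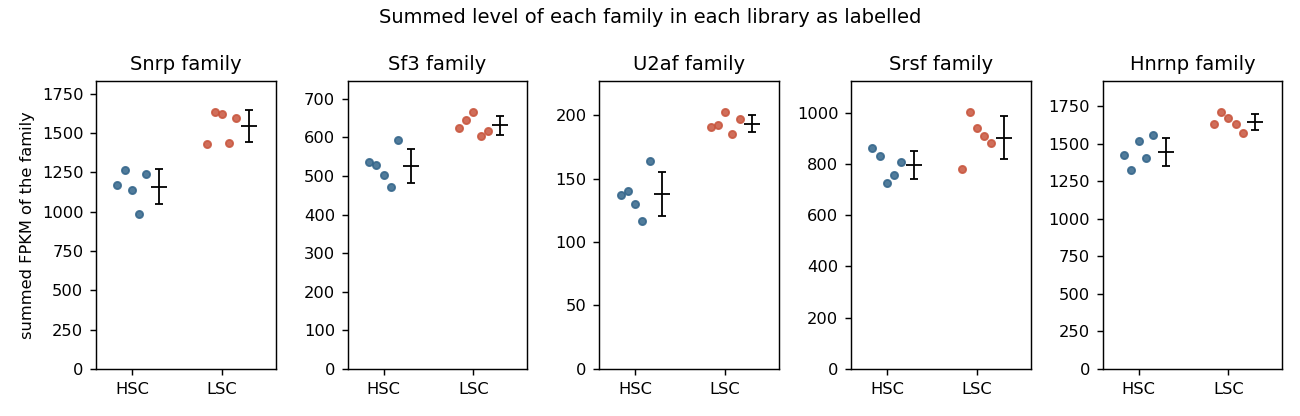
Summed FPKM of each family in each library as labelled, with mean and SD over 5 libraries. The Snrp sums lie at 983 to 1264 against 1429 to 1635 with no overlap, and the Srsf sums overlap.

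The libraries of a group did not vary alike. The median coefficient of variation over the 52 members was 16.4% under the HSC label and 9.35% under the LSC label, where all genes had 19.5% and 13.0%. HSC-labelled library 4 held the lowest of the 5 values for 29 of the 52 members (55.8%, against 32.4% of all genes), and HSC-labelled library 5 for 0 (7.71% of all genes). LSC-labelled library 1 was lowest for 24 members (46.2%, against 26.3%) and LSC-labelled library 2 highest for 23 (44.2%, against 21.3%). HSC-labelled libraries 3 and 4 had the largest ribosomal RNA shares (9.26% and 9.33%) and the fewest estimated fragments of their group (13120000 and 17520000). Library 3 of these was lowest for 5 members (9.62%, against 30.8%). LSC-labelled library 1 had the fewest estimated fragments of its group (16610000). The part of these values was not tested. Without HSC-labelled libraries 3 and 4 limma called 15 members higher and 0 lower, and without HSC-labelled libraries 1 and 2 it called 25 and 0. Of the 13431 genes tested, 2800 were higher and 1995 lower in the former fit, and 4123 and 1736 in the latter.

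Further genes of the spliceosome were called higher in part. Among 52 further snRNP and core proteins tested, 19 were higher and 0 lower (36.5% higher against 27.2% of all genes, where 13.8% were lower, and 0 lower also at an unadjusted p under 0.05), with a median of 0.17. Median-of-ratios scaling and quantile normalization each left 3 of them lower. Of the 13431 genes tested, 2690 and 2833 were lower in these fits, a larger share than among the further proteins. Ppih, a cyclophilin of the tri-snRNP, rose from 26.3 ± 7.04 to 44.5 ± 4.03 FPKM (log2 fold change 0.77, adjusted p = 0.0039). Zrsr2, the U2AF relative of the minor spliceosome, stood at 5.51 ± 1.02 and 5.15 ± 0.731 and was not called (adjusted p = 0.6586).

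Of 52 other splicing regulators tested, 9 were higher and 3 lower (17.3% higher, below the 27.2% of all genes, where 13.8% were lower), with a median of 0.16. The balance turned to 3 higher and 9 lower under quantile normalization and likewise under median-of-ratios scaling. Of the 13431 genes tested, 2786 were higher and 2833 lower in the former fit, and 2777 and 2690 in the latter. Once GC and length trends were taken out, 5 were higher and 8 lower, where 22.7% of all genes were higher and 20.8% lower. Pcbp3, a poly(C) binder, rose from 3.40 ± 1.24 to 7.33 ± 0.734 FPKM (0.97, adjusted p = 0.00189), and Mbnl1, a muscleblind protein, fell from 193 ± 36.8 to 127 ± 17.1 (-0.59, adjusted p = 0.00628). Of 5 exon junction complex genes, 3 were higher and 0 lower, among them Magohb, from 19.6 ± 4.28 to 27.9 ± 3.51 (0.51, adjusted p = 0.0173). Without HSC-labelled libraries 3 and 4 the number higher was 0, where 2800 of the 13431 genes tested were called higher.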

How the data were processed

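Bone marrow cells were sorted, and per the labels' protocols RNA was extracted with a miRNeasy kit, amplified by Geo-seq and made into libraries with a TruePrep kit. The authors deposited 1 table of FPKM values. The build was mm10, per the submitters' processing notes, which also name Cufflinks 2.1.1, Bowtie 0.12.9, DESeq2 and HTSeq, without role or order. The annotation and strand setting behind the table are not stated there, so reads of overlapping, antisense or near-identical genes may be shared.

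Of 51456 gene IDs, 51246 matched GENCODE M21 (GRCm38/mm10). Columns of other samples numbered 0. FPKM values are not counts. Whole fragments could not be recovered: 62.2% to 74.9% of low values were within 0.05 of a whole step, so depth is an estimate and no count test was run.

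The 13431 genes that reached 1 FPKM in 5 or more libraries entered a two-sided limma test (version 3.58.1, R 4.3.3, variance trend on the mean) of log2(FPKM + 1), with Benjamini-Hochberg adjustment over all of them and a threshold of 0.05. This scale understates the change of low genes. Paralog ratios used an exact permutation test. The fit was also run on simulated data with independent normal noise. That run held no shift of whole libraries, so it could not test the scaling between libraries. Members, lists and pairs came from general knowledge and were chosen with earlier results of these data known. Values in every library are given for the 2 largest rises and falls among the called genes of each family, for its highest gene, and for Sf3b1, Srsf2 and U2af1. In each further list the largest rise and fall among called genes, and Zrsr2, are given, and other genes were picked after their values were seen. The split of Snrp genes by role was made after values were seen. Same-numbered libraries did not deviate together in every pair (correlations -0.2904 to 0.2248), so the numbers were not taken as pairs. Tables and plots used Python 3.11.15, numpy 2.4.6, pandas 2.3.3 and matplotlib 3.10.9. Promoter sequences are from RefSeq (GRCm38.p6), matched by symbol for 47 of 54 members.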

Additional observations from a re-analysis of the deposited data

Results flagged for a closer look

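In 3 of 104 groups of 5 values (52 members in each of 2 groups of libraries) 1 library stood far from the other 4, where chance gives about 1 in 20. Sf3a2 had 24.5 FPKM in HSC-labelled library 5, against 10.7 to 13.6 in the others. U2af2 had 29.4 FPKM in the same library, against 16.96 to 20.3. Hnrnpa1 had 165.6 FPKM in LSC-labelled library 2, against 152 to 156.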

How the results depend on the processing

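Of the 21 members called higher, 12 were called under all 20 alternatives and 9 lost the call under at least 1; 0 changed sign. Of 31 not called, 12 were called under at least 1. With median-of-ratios scaling 13 members were higher and 1 lower (median log2 fold change 0.11), and 1 was also lower with GC and length trends removed or with quantile normalization (median 0.11 with quantile normalization). The lower member is Sf3b1, the 1 lower Sf3 gene in all 3. Genes lower among all tested numbered 2833 with quantile normalization, 2690 with median-of-ratios scaling and 2787 with GC and length trends removed, against 1859. Those higher numbered 2800 without HSC-labelled replicates 3 and 4 and 4123 without replicates 1 and 2, against 3654. Srsf genes called higher were 0 without the filter or with median-of-ratios scaling, and 1 with factors from all genes, quantile normalization, GC and length trends removed, the replicate block or without HSC-labelled replicates 3 and 4. Hnrnp genes higher were 2 with median-of-ratios scaling or GC and length trends removed and 8 without HSC-labelled replicates 1 and 2. Further core proteins lower were 3, 3 and 2 under the 3 scalings and 2 without HSC-labelled replicates 3 and 4. SR kinase and import genes higher were 1 without the filter, under all 4 scalings, without HSC-labelled replicates 3 and 4, and with the replicate block; those lower were 0 without the filter, with factors from all genes or without HSC-labelled replicates 1 and 2, and 2 under the other 3 scalings. Other regulators higher were 3, 3 and 5 under the 3 scalings, 5 with factors from all genes and 16 without HSC-labelled replicates 1 and 2; those lower were 9, 9 and 8. Exon junction genes higher were 1 without the filter and 0 without HSC-labelled replicates 3 and 4. Pairs called were 0 with either smaller pseudocount and without either 2 HSC-labelled replicates. Leaving out 2 libraries raises the smallest p possible, so those 2 runs could not decide these calls. The Hnrnpa1 to Hnrnpa2b1 difference was 0.60 without HSC-labelled replicates 3 and 4 and 0.56 without replicates 1 and 2. For U2af1 to U2af1l4 it was 0.39 and 0.44. The cause of the other changes between settings was not tested.

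Leaving out 1 library at a time gave 16 to 25 members higher, 0 to 4 Srsf, 3 to 6 Hnrnp, 0 to 1 SR kinase genes lower, 7 to 13 other regulators higher and 3 to 6 lower, and 0 to 2 pairs called. With the replicate number as a replicate block 21 members were higher and 0 lower; Srsf7 lost its call and 1 member gained one. The numbers pair no libraries by label, and correlations of same-numbered deviations ran from -0.2904 to 0.2248. At the estimated depth, genes below 1 FPKM rest on few fragments.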
